A study of Caenorhabditis elegans with 3 samples.

Results

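The genes described here encode the contractile apparatus of Caenorhabditis elegans muscle and the structures that anchor it to the cell membrane. They were chosen by name, as a list of 46 genes, and read by the probe sets whose only gene symbol in the platform annotation is one of them. Of the 46 genes, 44 had at least 1 such probe set, out of 17118 genes measured in the same way. The actin genes act-1 and act-2 had none. In 6 groups by role, the list held 9 thick filament genes, 8 thin filament genes, 10 troponin genes, 4 genes of immunoglobulin-domain proteins, 13 attachment genes and 2 calcium channel genes.

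The series compared 3 sets of wild-type hermaphrodite worms, taken as young adults at an age of 3 days from age-synchronised cultures. The control worms, the GO worms and the rGO worms were all held for 24 h at 20 °C in a potassium and sodium chloride medium with no bacteria to eat, so that the control is a fasted worm too. GO and rGO are known from the published study to be graphene oxide and reduced graphene oxide. No source used here states the concentration of either. RNA of each set went onto 1 Affymetrix array, which leaves no spread between replicates, no test and no p-value, and each difference below is between single arrays. Values are log2 expression values, so a difference of 1 is a 2-fold difference. The number of arrays limits the precision. Whole worms were used, and fewer muscle cells and less RNA per muscle cell cannot be told apart.

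In the sarcomere, the contractile unit of muscle, thick filaments of myosin pull on thin filaments of actin. Calcium released inside the cell binds troponin, which moves tropomyosin on the thin filament and lets myosin bind. Nematode body wall muscle transmits its force sideways through dense bodies and M-lines, which join the filaments to integrins in the membrane and through them to the cuticle. The pharynx, the feeding pump, is a separate muscle with its own set of myosin and troponin genes.

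Compared with the control array, few muscle genes differed by 2-fold. A gene was compared when the brighter array of a pair reached 6.79, the median over genes and arrays, which 43 of the 46 genes passed in every comparison. The titin-like ttn-1 did not pass, with means of 6.25, 6.69 and 6.59 on the control, GO and rGO arrays. On the GO array 4 of 43 genes lay 2-fold or more below control and 0 lay 2-fold or more above it. Over all 9303 genes compared, 9.76% were lower and 8.43% higher by that rule. On the rGO array 2 of 43 lay 2-fold or more below control and 0 above, against 9.88% and 7.99% of 9097 genes. The shares of lower genes, 9.30% and 4.65%, were thus near or below those of all genes. Muscle genes were brighter than most, as 33 (GO) and 32 (rGO) also passed a filter at the 75th percentile, 8.92. A share among genes of like brightness was not taken. The median difference of the muscle genes was 0.00 in both comparisons, against 0.030 and 0.034 for all genes. On the GO array 21 muscle genes were above and 21 below control, when 52.6% of all genes were above and 38.8% below. On the rGO array 21 were above and 20 below, when 52.4% of all genes were above and 40.2% below.

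At the smaller limit of 1.5-fold, added after the values were seen, 10 of 43 genes were lower on the GO array and 2 higher, or 23.3% and 4.65%, against 15.0% and 17.8% of all genes. The higher genes were tnc-2 and egl-19. For the rGO array 9 were lower and 5 higher, or 20.9% and 11.6%, against 16.1% and 19.1% of all genes. The higher genes there were myo-1, myo-2, tnc-2, tni-3 and unc-96. Muscle genes above control by this limit were thus a smaller share than among all genes on both arrays, which use the same control array. Here too, genes of like brightness were not compared. The scaling of the arrays to equal distributions would hide a change of all RNA.

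**Figure D1:**
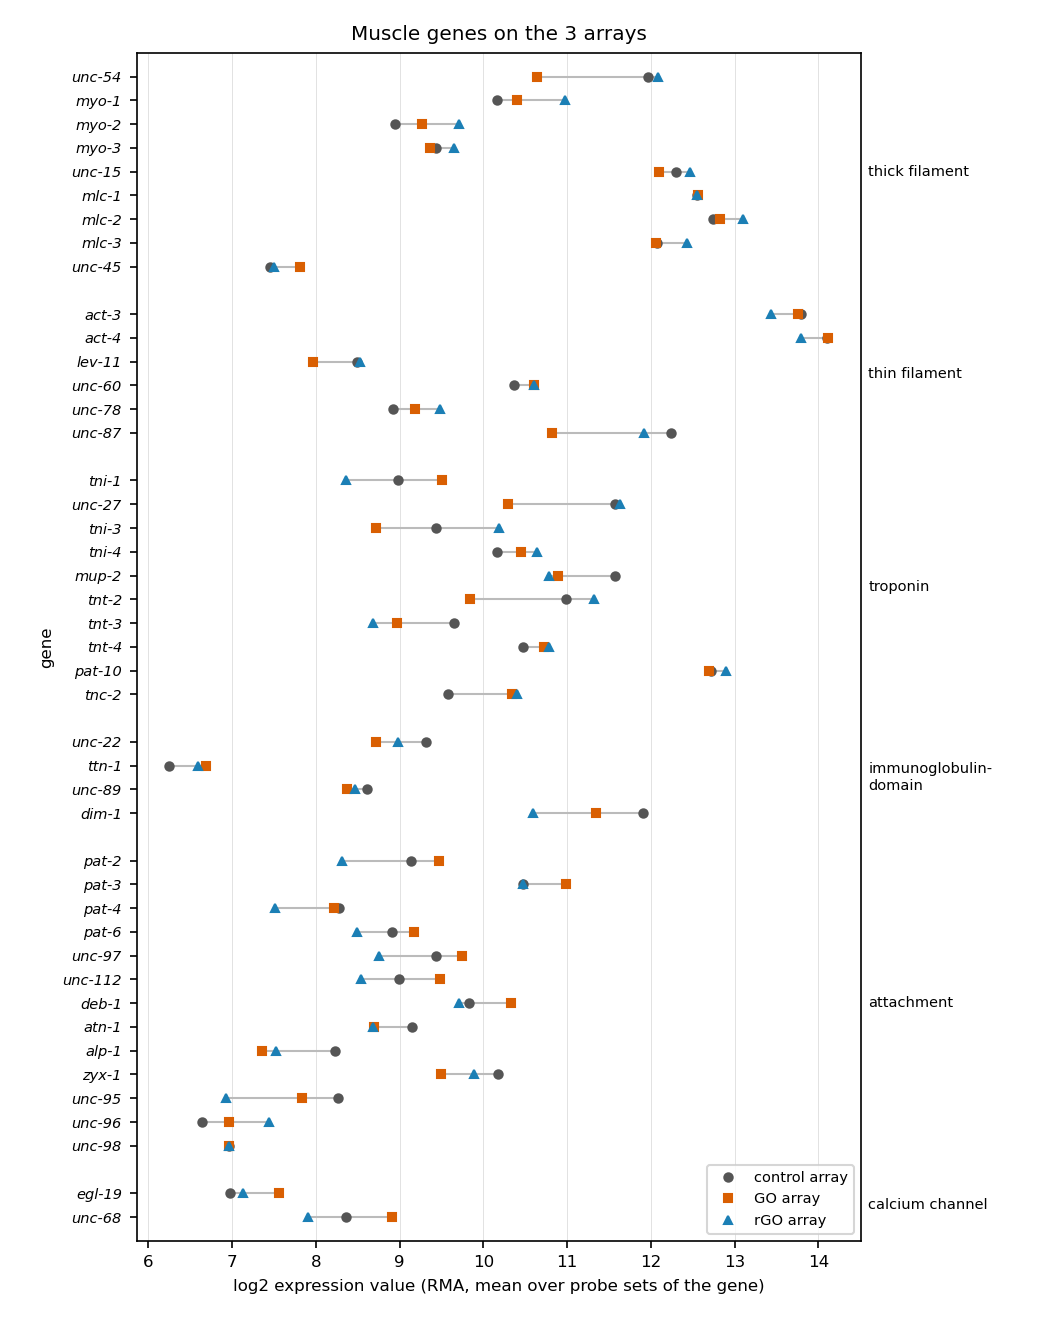
The log2 expression value of the 44 measured genes (horizontal axis, mean over the probe sets of a gene) on the control array (circles), the GO array (squares) and the rGO array (triangles), with genes grouped by role; the grey line spans the 3 arrays. The GO square lies to the left for unc-54, unc-87, unc-27 and tnt-2, and the rGO triangle lies to the left for 8 of 13 attachment genes. Positions are not to be compared between genes, because probe sets differ in brightness.

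Between the GO and rGO arrays, the groups by role lay on different sides. Filament genes mostly had a lower value with GO than with rGO, and attachment genes mostly a higher one. Of 25 filament genes compared (thick filament, thin filament and troponin together), 18 were lower on the GO array, 7 were higher, and the median of GO minus rGO was -0.27. Of 13 attachment genes, 9 were higher on the GO array, 3 were lower and the M-line gene unc-98 was equal on all arrays, with a median of 0.63. Among all 8978 genes in this comparison the median was 0.00, with 48.1% lower and 41.5% higher. By the 2-fold rule 5 muscle genes (11.6% of 43) were lower on the GO array, against 3.73% of all genes. These were unc-54, unc-87, unc-27, tni-3 and tnt-2, all filament genes. Of the 5, unc-27 alone has a probe set that the maker's naming does not mark as sharing probes between transcripts, and without the marked probe sets 1 lower gene is left. The median of GO minus rGO then turned from -0.36 to 0.0084 for thick filament genes and from -0.15 to 0.32 for thin filament genes. The troponin median of -0.13 and the attachment median of 0.63 were as before, but over fewer genes. Of troponin genes unc-27 and the pharyngeal tni-4, tnt-4 and tnc-2 were left, and tni-4 and tnt-4 set the median in both settings. Of attachment genes pat-2, pat-3, unc-97, deb-1 and unc-96 were left, and deb-1 was the median in both settings. Of thick filament genes unc-15, mlc-1, mlc-3 and unc-45 were left, and of thin filament genes act-3, act-4 and unc-60. The values of act-3 and act-4, 0.32 each, were the same in both settings. The turn of the thick and thin filament medians thus mixes the loss of whole genes with that of shared probes. With the brightest probe set per gene the thick filament median was -0.21 and the thin filament median 0.12. The 3 higher genes (6.98%, against 5.59% of all genes) were pat-2, tni-1 and unc-68. The comparisons share arrays, so they are not separate pieces of evidence.

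**Figure D2:**
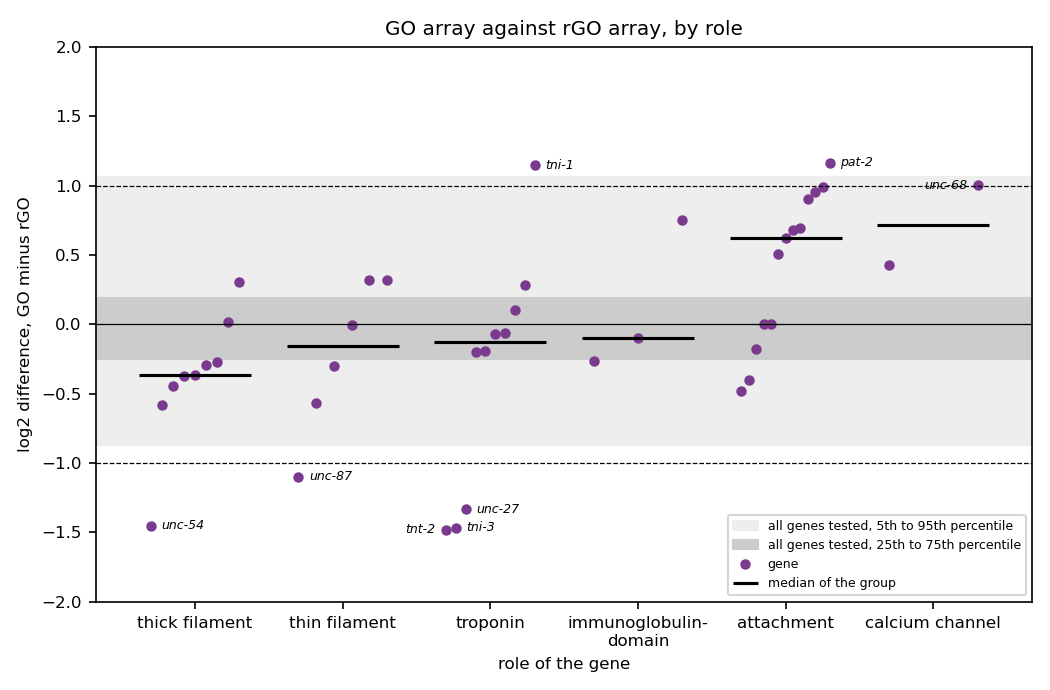
The log2 difference between the GO and rGO arrays (vertical axis) for each muscle gene (dots) by role, with the group median (black bar); dashed lines mark 2-fold, and grey bands hold the middle of all 8978 genes compared. The attachment median of 0.63 lies above the dark band, the thick filament median of -0.36 below it, and unc-54, unc-87, unc-27, tni-3 and tnt-2 lie below the lower dashed line.

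Among thick filament genes, the myosin heavy chains did not move together. The major heavy chain of body wall muscle, unc-54, read 11.96 on the control array, 10.64 with GO and 12.09 with rGO. The GO value was therefore 2.50-fold below control and 2.74-fold below the rGO value, while the control and rGO arrays were 0.13 apart. Its partner in the same filaments, myo-3, which forms the centre of the body wall thick filament, stood at 9.43, 9.36 and 9.66 and thus within 0.30 across the arrays. Both genes are read by 1 probe set each, with probes that the maker's naming marks as shared between transcripts.

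The 2 heavy chains of the pharynx lay lowest on the control array and highest on the rGO array. The first, myo-1, had values of 10.16, 10.40 and 10.98 on the control, GO and rGO arrays. The second, myo-2, had values of 8.94, 9.26 and 9.71. Against control, this is a difference of 0.24 and 0.32 with GO and of 0.82 and 0.76 with rGO, all under 2-fold.

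Paramyosin, the rod protein at the core of the thick filament, is encoded by unc-15 and had values of 12.30, 12.10 and 12.47. Its 3 probe sets disagreed, with GO minus rGO between -1.29 and 0.17. The regulatory myosin light chain mlc-1 was nearly flat at 12.55, 12.57 and 12.55. The other regulatory light chain, mlc-2, read 12.74, 12.83 and 13.10. The proteins of both are nearly identical, and a probe set annotated to both genes read 12.03, 12.08 and 12.66, so the values of mlc-1 and mlc-2 may not be separate. The essential light chain mlc-3 read 12.07, 12.07 and 12.43. The myosin chaperone gene unc-45 ran the other way from most of the group, with 7.45 in the control, 7.81 with GO and 7.50 with rGO. One of its 2 probe sets was below the 6.24 reached by probe sets with no expected target. In all, the rGO array held the highest value for 7 of 9 thick filament genes and the control array for 0 of 9. The same count over all genes was not made. On the rGO array 8 of 9 thick filament genes were above control, against 52.4% of all genes. By 1.5-fold or more 2 of 9 were above it, or 22.2%, against 19.1% of all genes.

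The actins differed little across the arrays. The 1 probe set of act-3 had values of 13.79, 13.76 and 13.44, and that of act-4 had 14.10, 14.12 and 13.80. Both were lowest on the rGO array, by 0.35 and 0.30 against control. Another 3 probe sets, annotated to several actin genes at once, belong to no single gene, and they lay between 13.24 and 13.64 on all arrays. One of these was equal at 13.51 on the 3 arrays. Such ties are common in these data, with 20.4% of the probe sets of 1 gene equal on the GO and control arrays, and do not show a lack of change.

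The maker's actin control probe sets, by their names, read the 3′ end, the middle and the 5′ end of actin transcripts, and they gave different answers. The 3′ probe set was 13.44, 13.42 and 13.44 on the control, GO and rGO arrays. In the middle the values were 12.05, 11.58 and 12.15. At the 5′ end they were 11.56, 10.40 and 12.12, so that GO minus rGO was -0.02 at the 3′ end and -1.73 at the 5′ end. Over 8 worm control pairs the median gap between 3′ and 5′ was 1.88 in the control, 2.57 with GO and 1.16 with rGO. The rGO gap was the smallest in every pair. The GO gap was larger than in the control except for catalase (4.72 against 4.84) and ubiquitin (4.85 against 5.02). Among the 5 filament genes with a GO value 2-fold or more below the rGO value, unc-54, unc-27, tni-3 and tnt-2 were lowest with GO and highest with rGO. The fifth, unc-87, was lowest with GO and highest in the control. The choice of these genes fixed GO below rGO, so that part of the order is no result. For rGO minus control, unc-54 had 0.13, unc-27 0.06, tni-3 0.75, tnt-2 0.33 and unc-87 -0.32. No source used here states where the probe sets of the muscle genes lie in their transcripts, and the part of this end effect in the filament differences was not tested.

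**Figure D3:**
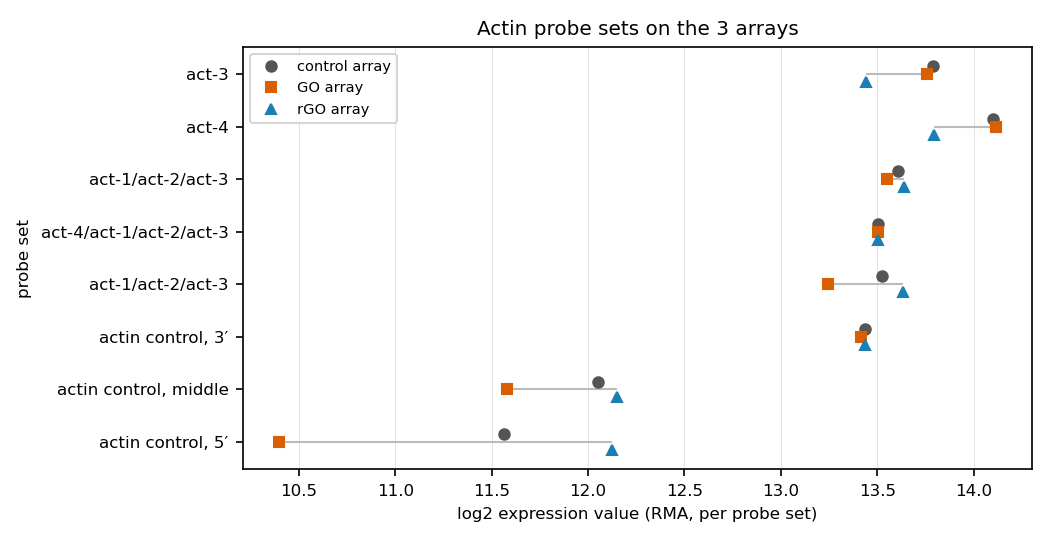
Log2 expression values (horizontal axis) of 8 actin probe sets on the control (circles), GO (squares) and rGO (triangles) arrays: those of act-3 and act-4 alone, 3 annotated to several actin genes and the 3 control probe sets along an actin transcript. The spread between arrays is small at the 3′ end and grows towards the 5′ end, where the values are 11.56, 10.40 and 12.12.

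Among the proteins that bind the thin filament, unc-87 stood apart. It encodes a calponin-like protein that stabilises actin filaments, and its values were 12.24, 10.82 and 11.92 on the control, GO and rGO arrays. The GO array was 2.67-fold below control and 2.14-fold below the rGO array. Each of the 3 probe sets showed it, with GO minus control between -1.62 and -1.18, and all share probes between transcripts. By the brightest probe set alone, GO minus rGO came just short of 2-fold.

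Tropomyosin, lev-11, is read by 7 probe sets, and its mean was 8.49, 7.96 and 8.53. Their GO minus control differences ran from -1.21 to 0.00, and the dimmest of the 7 lay between 4.04 and 4.07. The cofilin gene unc-60, whose product severs actin filaments, had means of 10.37, 10.61 and 10.61 over 5 probe sets. For rGO minus control these 5 ranged from -0.40 to 1.19, the widest disagreement of any muscle gene in that comparison. Its cofactor unc-78 read 8.92, 9.18 and 9.48. Thus unc-60 and unc-78, which act in the turnover of actin filaments, were at most 1.48-fold above control in their means and on neither array below it.

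Troponin genes separated by isoform. Troponin I, the inhibitory subunit, has 3 forms here outside the pharynx. For unc-27 the values were 11.57, 10.30 and 11.63 on the control, GO and rGO arrays, and for tni-3 they were 9.44, 8.72 and 10.19. Both were lowest on the GO array and highest on the rGO array, by 2.52-fold and 2.76-fold between these arrays. The third, tni-1, had the reverse order, with 8.98, 9.51 and 8.36, so that it was 2.21-fold higher on the GO array than on the rGO array. Both probe sets of tni-3 had the same signs, while unc-27 and tni-1 have 1 probe set each.

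Troponin T, the subunit that binds tropomyosin, was split as well. On the control, GO and rGO arrays tnt-2 had values of 10.99, 9.84 and 11.32, so that the GO value was 2.22-fold below control and 2.79-fold below the rGO value. The other two forms outside the pharyngeal list were below control on both exposed arrays. The first of these, mup-2, stood at 11.57, 10.89 and 10.79, and tnt-3 stood at 9.65, 8.97 and 8.68. After the differences were centred on the median of all genes, tnt-3 just passed 2-fold for rGO minus control. The body wall troponin C gene pat-10, for the calcium-binding subunit, was at 12.71, 12.69 and 12.89, within 0.20 on the 3 arrays.

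The pharyngeal troponins were above control on both exposed arrays. The calcium-binding tnc-2 had values of 9.58, 10.34 and 10.40, the troponin I gene tni-4 had 10.16, 10.45 and 10.64, and the troponin T gene tnt-4 had 10.47, 10.72 and 10.79. With myo-1 and myo-2, all 5 genes of the pharyngeal muscle list were higher than control with GO (median 0.29) and with rGO (median 0.76), against 52.6% and 52.4% of all genes with a difference above 0. None reached 2-fold, and both differences use the same control array. Of the 20 filament genes outside the pharyngeal list, 7 were above control with GO and 13 with rGO.

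Markers of the pharyngeal glands and marginal cells showed no such common direction. Of 8 such genes, 4 were above and 4 below control on each exposed array. At the ends of their range, phat-3 read 8.27, 6.13 and 7.61, at least 4.09-fold lower with GO than in the control because the GO value was below 6.24, and phat-5 read 6.30, 11.25 and 10.69. Of 5 pharyngeal and muscle transcription factors that passed the filter, ceh-22, a regulator of pharyngeal muscle genes such as myo-2, had values of 5.55, 7.88 and 6.85. Its control value was below the 6.24 of probe sets with no target, so against control it was at least 3.10-fold higher with GO and at least 1.53-fold higher with rGO. It passed the filter of 6.79 only through the exposed arrays, where it therefore had to be higher. The same held for phat-5, one of the 4 genes above control, and for pha-4, just below the filter in the control. The values for ceh-34 were 7.21, 8.71 and 7.63, for pha-4 6.78, 7.54 and 7.30, and for unc-120, a regulator of body wall muscle, 6.92, 7.40 and 6.92.

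**Figure D4:**
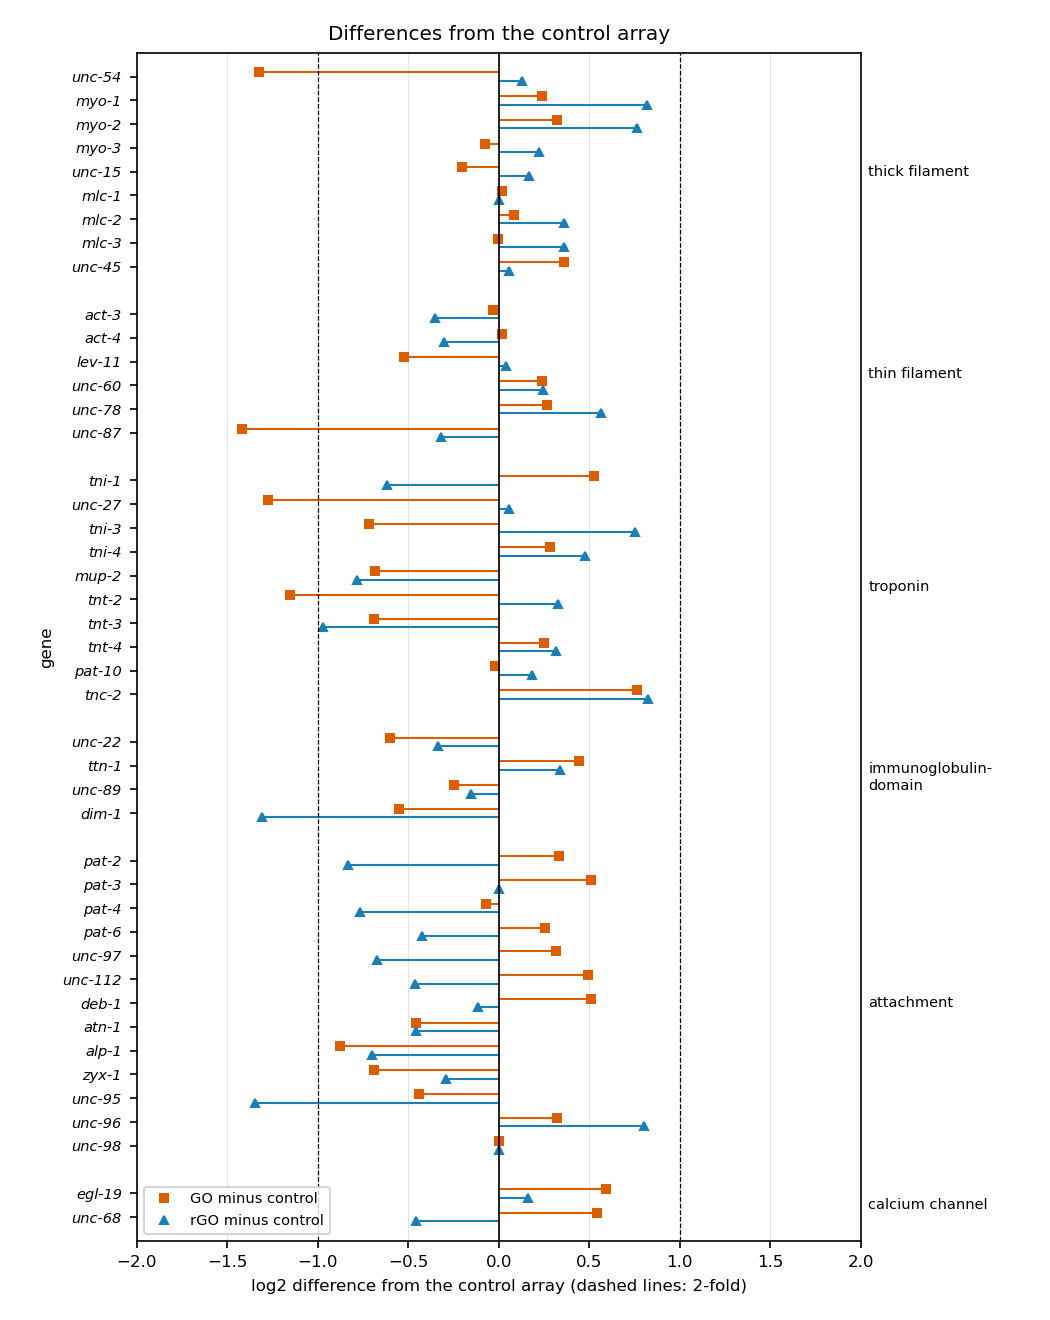
Log2 difference from the control array (horizontal axis) for each of the 44 measured genes on the GO array (squares) and the rGO array (triangles), grouped by role; dashed lines mark 2-fold. On the GO array unc-54, unc-87, unc-27 and tnt-2 lie beyond the left dashed line, on the rGO array dim-1 and unc-95 do, and the pharyngeal genes myo-1, myo-2, tni-4, tnt-4 and tnc-2 lie to the right of 0 on both.

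Proteins with immunoglobulin domains link and regulate the filaments. The 3 genes that passed the filter were below control on both exposed arrays. The largest difference was that of dim-1, a protein found near the dense bodies, with values of 11.90, 11.35 and 10.59 on the control, GO and rGO arrays. It was 2.48-fold lower on the rGO array than on control, and its 2 probe sets gave -1.36 and -1.25 for that difference. Twitchin, unc-22, read 9.32, 8.72 and 8.98, but its 2 probe sets gave -1.29 and 0.09 for GO minus control. For unc-89, the obscurin homologue of the M-line, the means were 8.62, 8.37 and 8.46 over 5 probe sets, with GO minus control of -1.12 for one probe set and between -0.15 and 0.05 for the other four. The titin-like ttn-1 had 6 probe sets. The brightest read 9.90, 11.10 and 10.19, or 1.20 higher on the GO array than on control, and others lay below 6.24 on every array. For these 3 long genes the mean hides disagreement between probe sets.

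All genes of the integrin complex were higher on the GO array than on the rGO array. Integrin alpha, pat-2, had values of 9.14, 9.47 and 8.31 on the control, GO and rGO arrays, which put the GO array 2.24-fold above the rGO array. Integrin beta, pat-3, had 10.48, 10.99 and 10.48. The kindlin homologue unc-112, which activates integrin, had 9.00, 9.49 and 8.54. In each case the GO array was the highest. The rGO array was below control for pat-2 and unc-112 and 0.0037 above it for pat-3.

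The 3 proteins that form a complex on the integrin tail followed the same order between GO and rGO. Integrin-linked kinase, pat-4, read 8.28, 8.21 and 7.51, and the parvin homologue pat-6 read 8.91, 9.17 and 8.49. For the LIM-domain protein unc-97, the PINCH homologue, the values were 9.43, 9.75 and 8.76. Against the rGO array the GO array was higher by 0.70, 0.68 and 0.99, the last just short of 2-fold. Vinculin, deb-1, a core protein of the dense body, read 9.83, 10.33 and 9.71, a GO minus rGO difference of 0.63. All 6 of these genes with 2 probe sets (pat-2, pat-3, pat-4, unc-97, unc-112 and deb-1) had both probe sets higher on the GO array than on the rGO array.

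**Figure D5:**
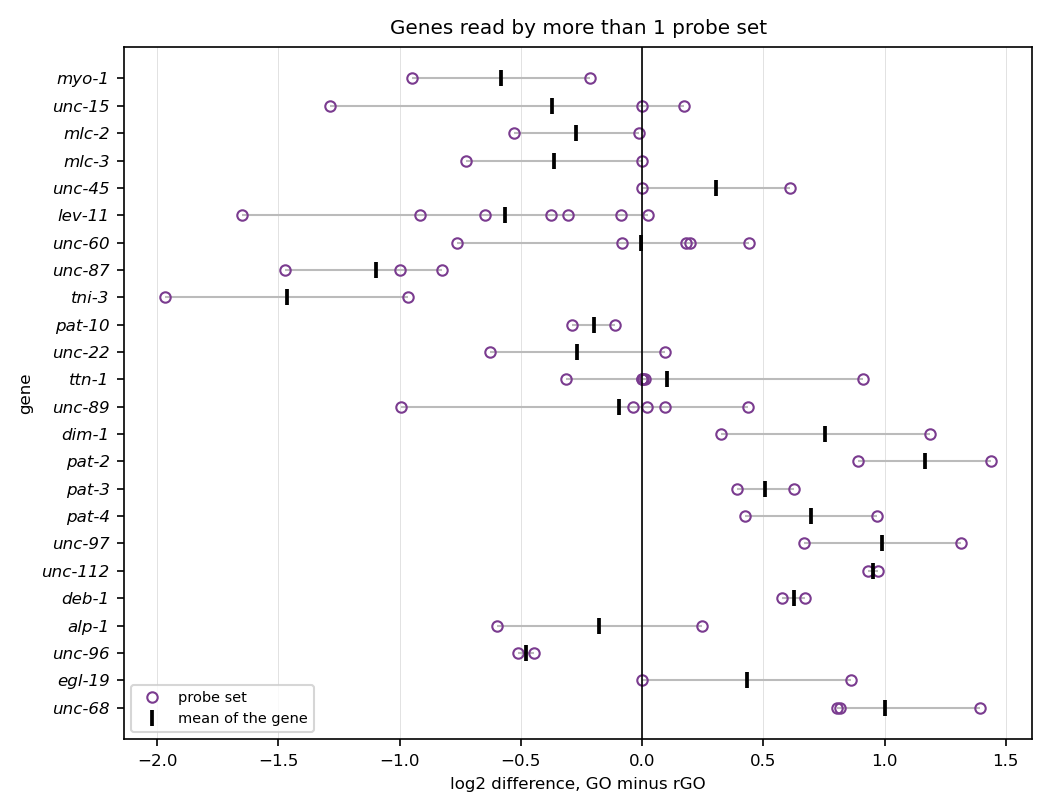
GO minus rGO log2 differences (horizontal axis) of each probe set (circles) of the 24 muscle genes read by more than 1 probe set, with the mean of the gene (black tick). For pat-2, pat-3, pat-4, unc-97, unc-112, deb-1, dim-1 and unc-68 every circle lies above 0, for unc-87, tni-3, myo-1, mlc-2, pat-10 and unc-96 every circle lies below it, and the other 10 genes have circles on both sides or at 0.

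Further dense body genes on the list were atn-1, alp-1 and zyx-1. Alpha-actinin, atn-1, which cross-links actin at the dense body, read 9.14, 8.69 and 8.69 on the control, GO and rGO arrays, with the exposed arrays 0.0020 apart. The PDZ and LIM protein alp-1 read 8.23, 7.35 and 7.53, and zyxin, zyx-1, read 10.18, 9.49 and 9.89. These 3 genes were thus highest in the control and below it on both exposed arrays, by between 0.29 and 0.88.

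The M-line and dense body protein unc-95 had values of 8.27, 7.83 and 6.92, and with a 2.54-fold lower value on the rGO array than on control it was the attachment gene farthest from control. For unc-96, an M-line protein, the order was the reverse, with 6.64, 6.97 and 7.44, and both of its probe sets were higher on the rGO array than on control. One of them lay below 6.24 on every array, and the other alone was 1.17 higher than control. Its partner unc-98 was equal at 6.97 on all arrays, which the summary of 3 arrays often gives. Of the 13 attachment genes, 8 were lowest with rGO, 2 with GO and 2 in the control. The same count over all genes was not made. On the rGO array 10 of 13 were below control, against 40.2% of all genes. At a difference of 1.5-fold, a limit added after the values were seen, 7 of 13 attachment genes were higher on the GO array than on the rGO array and 0 were lower. Over all genes these shares were 10.6% and 10.0%.

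Both calcium channel genes were above control on the GO array. The ryanodine receptor gene unc-68, which encodes the calcium release channel of the sarcoplasmic reticulum, had means of 8.36, 8.91 and 7.90 over 3 probe sets. It was 2.01-fold higher on the GO array than on the rGO array, at the limit of 2-fold, and each probe set was higher there, by 0.80 to 1.39. The voltage-gated calcium channel of muscle, egl-19, had means of 6.97, 7.56 and 7.13. Its brighter probe set read 8.31, 9.49 and 8.63, or 1.18 higher on the GO array than on control. The other read 5.64 on all 3 arrays, below 6.24, and pulled the mean down.

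Genes of the muscle machinery outside the list were set beside it. Of 21 further dense body and M-line genes that passed the filter, 15 were above control on the GO array, against 52.6% of all genes. For rGO minus control 20 passed. At least 1 gene thus passed only through the GO array and had to be higher there than on both other arrays. Of the 21, 1 was at least 2-fold higher (uig-1, 1.04) and 0 were lower by that much, against 8.43% and 9.76% of all genes. Perlecan, unc-52, the matrix protein beneath muscle, read 8.64, 9.56 and 8.66. Against the rGO array, 13 of 21 were higher on the GO array and 7 lower, with a median of 0.21 against 0.63 for the attachment genes. Among all genes 41.5% were higher and 48.1% lower. None of these 21 reached 2-fold in that comparison, against 5.59% higher and 3.73% lower among all genes.

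Among 12 further calcium handling and channel genes, 5 were at least 2-fold higher on the GO array than on control and 0 lower, against 8.43% and 9.76% of all genes. On the rGO array 1 of 11 was higher and 0 lower, against 7.99% and 9.88%. The genes higher with GO included the calcium channel subunit gene unc-36 (6.73, 8.27 and 7.25) and the potassium channel genes slo-1 (5.96, 7.70 and 6.76, at least 2.75-fold higher with GO) and exp-2 (6.38, 7.61 and 7.56). Several of these genes are also used by neurons. Of 10 neuron markers 8 passed the filter, and of these 7 were above control on the GO array (median 0.86) and 8 on the rGO array (median 0.99). Among all genes 52.6% and 52.4% were above control. The neuronal part in these channel differences was not tested.

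Of 7 dystrophin and sarcoglycan complex genes, which protect the muscle membrane, 4 were at least 2-fold higher on the GO array than on control and 0 lower, with a median of 1.12, against 8.43% and 9.76% of all genes. On the rGO array 1 of 5 was higher and 1 lower, with a median of 0.66, against 7.99% and 9.88%. Examples of the genes higher with GO were the syntrophin genes stn-1 (6.43, 7.74 and 7.16) and stn-2 (6.90, 8.16 and 6.99). The sarcoglycan gene sgcb-1 ran against them, with 8.06, 7.36 and 6.42. Several of these genes, and of the calcium handling and channel genes above, were below the filter of 6.79 on the control array. A gene that passed only through a bright GO array had to be higher there, so these counts and medians describe the genes that passed and support nothing about the groups.

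Actins and myosins outside muscle were read in the same way. Of 11 such genes, 1 lay more than 2-fold below control on the GO array, the intestinal actin act-5, with 11.89, 10.23 and 9.75 on the control, GO and rGO arrays. One was at least 2-fold higher, the unconventional myosin gene hum-6, at 5.67, 7.49 and 6.23. Over all genes 9.76% were lower and 8.43% higher by that rule. With both other arrays below 6.24, hum-6 was at least 2.37-fold higher with GO, and it passed the filter only through the GO array, so it had to be higher there. The fibrous organelles of the epidermis pass the force of muscle on to the cuticle. Of 8 of their genes, 7 were higher with GO than with rGO, with a median of 0.48, against 41.5% of all genes above 0 and a median of 0.00. Against control the same genes were mixed, with 5 above and 3 below on the GO array and 4 above and 4 below on the rGO array. For mup-4, a transmembrane receptor of these organelles, the values were 9.02, 9.08 and 7.92. The intermediate filament gene mua-6 was at 8.48, 7.26 and 6.75. Epidermis markers, whose cells carry these organelles, were also mostly higher on the GO array than on the rGO array (7 of 9, median 0.79). Their differences ran from -3.29 for col-19 (12.17, 7.97 and 11.26) to 2.28 for noah-1 (7.65, 11.02 and 8.74). Against control, 5 of 10 epidermis markers were above and 5 below on the GO array. The part of the epidermis in the result for fibrous organelle genes was not tested.

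As for the arrays as a whole, medians over the probe sets of worm genes were 6.87, 6.92 and 6.86 on the control, GO and rGO arrays. The 24 probe sets of the bacterial spike-in transcripts all read below control on both exposed arrays, with medians of -1.55 and -0.98. All 18 hybridisation control probe sets did so too, with medians of -0.62 with GO and -0.93 with rGO. Intestine markers were below control in 7 of 9 genes on the GO array (median -0.90) and in 6 of 9 on the rGO array (median -0.28). Among all genes 38.8% and 40.2% were below control. Muscle genes were thus compared within worms whose other tissue markers also differed. Between probe sets of a single muscle gene, the median gap over 24 genes was 0.45 in the GO and 0.52 in the rGO comparison with control, and 0.68 in GO minus rGO.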

How the data were processed

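The authors deposited 1 log2 value per probe set and array. The submitters' processing notes name RMA, GCOS and Affymetrix Expression Console without versions. RMA makes the distributions of the arrays equal, and its median polish over 3 arrays gives exact ties. The labels' protocols give 300 ng of total RNA per sample. Of 22625 probe sets, 20766 carry 1 gene in the annotation of 2016, and only these gave gene values, 86 of them for muscle genes. They were averaged per gene (Python 3.11.15, pandas 2.3.3). No genome was given and the annotation names no assembly, so neither sequences nor coordinates are shown. The limit of 6.24 is the highest value among 8 control probe sets that have no target in worm RNA. A difference of at least 1 log2 unit was counted as a rule of size, with no test. The counting step was tested on simulated data. All 46 genes are named, and from each other list up to 4 genes with the largest difference. The genes and lists were chosen with earlier results of these data known. The 3 comparisons share arrays. Alternatives covered the probe set summary, shared probes, the filter and the normalisation.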

Additional observations from a re-analysis of the deposited data

How the results depend on the processing

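No paired analysis was possible because each condition has 1 array. Centring, a further quantile normalisation and no filter moved no count by more than 1.5 times. With the brightest probe set per gene, 2 genes were at least 2-fold higher on the GO array than on control (egl-19 and ttn-1), 2 on the rGO array (tni-3 and unc-96), and 5 were higher on the GO than on the rGO array; the medians of all muscle genes were -0.16 for rGO minus control and, in GO minus rGO, 0.055. Without probe sets that share probes, 22 muscle genes were left. Then 1 was higher (egl-19) and 1 lower (unc-27) on the GO array than on control, 1 was lower on the rGO array (dim-1), 1 was lower on the GO than on the rGO array (unc-27), and the medians were 0.30 for GO minus control and 0.18 for GO minus rGO. No value then remained for unc-54, unc-87, tnt-2 and tni-3. The filter at the 75th percentile left 1 lower gene for rGO minus control. At 1.5-fold, added after the values were seen, 2 genes were higher and 10 lower for GO minus control, 5 and 9 for rGO minus control, and 10 were higher for GO minus rGO. Without dim probe sets, also added later, 1 gene was higher for GO minus control (egl-19) and 1 for rGO minus control (unc-96). The attachment median for GO minus rGO stayed between 0.63 and 0.68 and the troponin median between -0.13 and -0.10 under all 7 alternatives tried for them. Not all 7 could move them. Centring took off 0.00 in this comparison, and without the filter no attachment or troponin gene was added. The 75th percentile filter and the removal of dim probe sets took no troponin gene or probe set away. Without probe sets that share probes, these medians were over fewer genes, and the troponin genes left were unc-27 and the pharyngeal tni-4, tnt-4 and tnc-2.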
